A study of Mus musculus with 8 samples.

Results

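The red cell program of the fetal mouse bowel was followed in 33 genes. They were listed by name for their known roles, and not by how they behaved here, although earlier results of these data were known. The roles are globins, globin chaperone, erythroid transcription factors, heme enzymes, receptors, and red cell membrane, skeleton and enzyme genes. The count table holds 29092 genes, and 32 of the 33 have a row under their symbol. *Ahsp*, the alpha-globin chaperone gene, was not analysed here. Cells were taken at E13.5 from the whole bowel, stomach to anus, of *Ednrb-EGFP* embryos, whose GFP reporter marks enteric neural crest-derived cells (ENCDCs), the cells that build the nervous system of the bowel. GFP+ ENCDCs and GFP- cells, called gut cells, were separated by flow sorting, and 4 mRNA-seq libraries were made of each. The labels give Wild-type as the genotype of both groups. The study's methods describe embryos heterozygous for the reporter on a C57BL/6J background. Where needed, RNA had been pooled over samples, so p-values measure the spread between these libraries.

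Red cells fill themselves with hemoglobin, a tetramer of alpha-like and beta-like globin chains that each hold a heme. In the mouse, primitive red cells from the yolk sac use embryonic globins, and definitive red cells from the fetal liver use adult-type globins. At mid-gestation both kinds of cell circulate together. Heme is made from glycine and succinyl-CoA by a chain of enzymes that starts and ends in the mitochondrion. Every cell needs heme, so most of these enzymes work in all tissues, while *Alas2* is the erythroid form of the first one. A few transcription factors, *Gata1*, *Klf1*, *Tal1*, *Nfe2* and *Gfi1b* among them, turn on the red cell genes.

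The values are whole-number read counts that the authors had brought to a common depth. All 8 libraries had nearly the same total, from 13250893 to 13267220 counts, and the highest total was 0.123% above the lowest. The sort was visible in marker genes. All 8 enteric neural crest genes on a marker list, such as *Ret* and *Sox10*, were higher in ENCDCs, with a median log2 fold change of 6.40. Over all tested genes 17.0% were higher, by the test given below. Summed macrophage markers ran from 10.4 to 39.6 CPM (counts scaled to each library's total) in ENCDC libraries and from 649.5 to 1115 in gut libraries. Summed mesenchyme markers ran from 227.7 to 1570 and from 11670 to 15370 CPM. ENCDC replicate 3 stood apart from the other 7 libraries on the second principal component (11.4% of the variance), and it had the highest mesenchyme and macrophage sums of the ENCDC libraries. Values without it are given where a fold change moved by over 1.5 times.

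Red cell genes were far lower in ENCDCs than in gut cells, from globins and transcription factors to the membrane, while heme enzymes other than *Alas2* differed less. Calls were made by the edgeR quasi-likelihood test at a Benjamini-Hochberg adjusted p under 0.05 over 18866 tested genes. SE is an approximate standard error, the size of the log2 fold change divided by the square root of that test's F statistic. By this test 30 of the 32 genes with a row were lower in ENCDCs, where 20.9% of all tested genes were, and 0 were higher, where 17.0% of all tested genes were. The same 0 were higher by DESeq2, and 0 had an unadjusted p under 0.05 in that direction. In 30 of the 32 all ENCDC counts lay below all gut counts, against 22.3% of all tested genes. The median log2 fold change was -6.24 (also with genes that had no ENCDC count placed at their bound) and -0.04 over all tested genes. Of the 32 genes, 9 passed the filter on low counts only through the gut libraries and could only differ in this direction, and 21 of the other 23 were lower. *Uros* and *Bpgm* were not called. By size, 22 genes were at least 10-fold lower, and 6 called genes were less than 4-fold lower: *Alas1*, *Alad*, *Urod*, *Ppox*, *Tfrc* and *Sptb*.

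**Figure D1:**
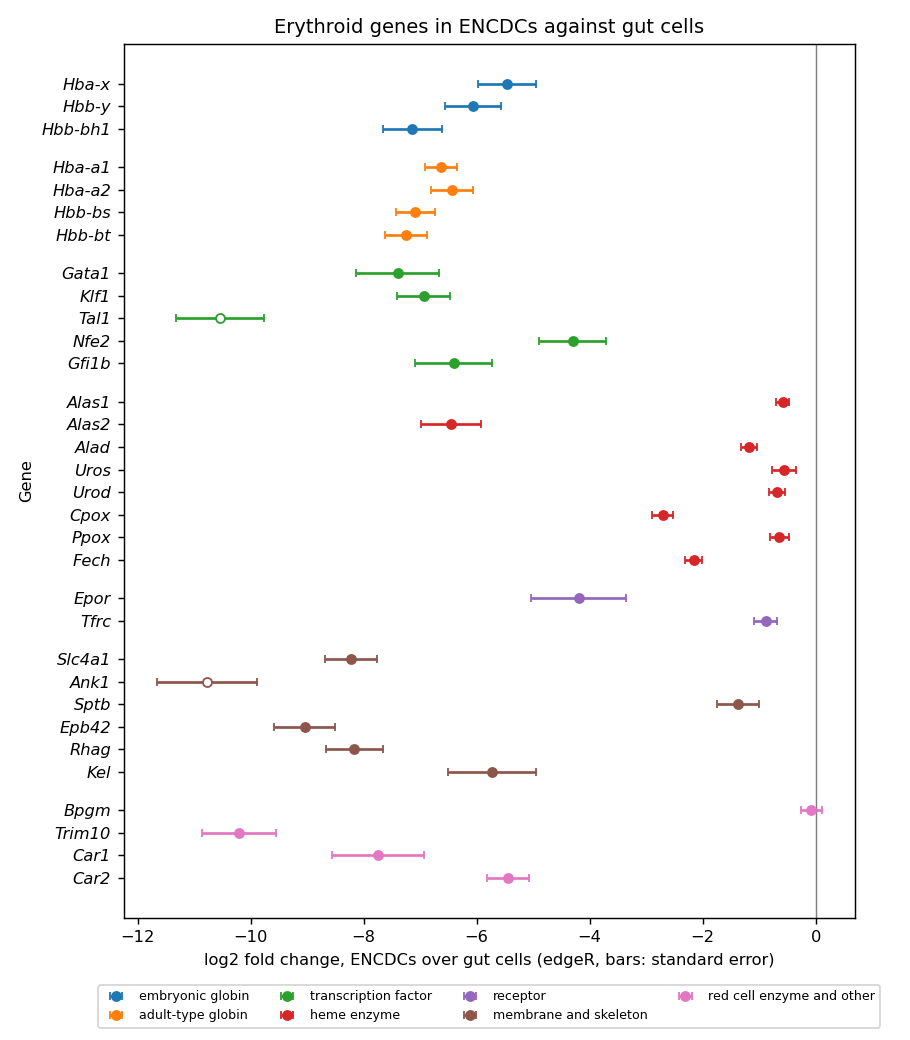
Log2 fold change (x axis, edgeR, ENCDCs relative to gut cells, bars are the SE) for the 32 genes (y axis), coloured by role. Open circles are *Tal1* and *Ank1*, which had no ENCDC count and whose fitted value is no bound. *Bpgm* lies nearest to 0 (-0.08), and the heme enzymes other than *Alas2* lie between -2.71 and -0.56.

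The 7 globin genes lie in 2 clusters. In mm10 the beta-like genes are on the minus strand of chromosome 7, with *Hbb-y* at chr7:103851749-103853216, *Hbb-bh1* at chr7:103841637-103843164, *Hbb-bs* at chr7:103826534-103828096 and *Hbb-bt* at chr7:103812524-103813996. The alpha-like genes are on the plus strand of chromosome 11, with *Hba-x* at chr11:32276400-32278116, *Hba-a1* at chr11:32283511-32284465 and *Hba-a2* at chr11:32296489-32297298. The first 60 coding bases of the GENCODE M21 transcripts show how far the embryonic genes differ from the adult-type ones, which bears on how well reads can be assigned to each gene. Capitals mark bases that differ from *Hbb-bs* (for the beta-like genes) or from *Hba-a1* (for *Hba-x*).
Hbb-bs: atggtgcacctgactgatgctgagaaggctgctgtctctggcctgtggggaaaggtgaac
Hbb-y: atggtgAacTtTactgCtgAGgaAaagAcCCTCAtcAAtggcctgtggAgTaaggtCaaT
Hbb-bh1: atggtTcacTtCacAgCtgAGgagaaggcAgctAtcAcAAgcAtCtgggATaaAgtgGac
Hba-a1: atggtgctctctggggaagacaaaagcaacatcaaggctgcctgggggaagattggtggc
Hba-x: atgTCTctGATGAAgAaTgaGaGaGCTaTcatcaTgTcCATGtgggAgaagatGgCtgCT

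*Hbb-y* differed from *Hbb-bs* at 19 of these 60 bases, *Hbb-bh1* at 18, and *Hba-x* differed from *Hba-a1* at 28. *Hbb-bt* has the same first 60 bases as *Hbb-bs*, and *Hba-a2* the same as *Hba-a1*. Over the whole coding sequence, *Hba-a1* and *Hba-a2* differed at 1 of 426 bases and *Hbb-bs* and *Hbb-bt* at 1 of 441. The embryonic genes were 61.5% to 76.4% identical to the other members of their cluster. For *Hbb-y*, *Hbb-bh1* and *Hba-x*, 100% of the 50-base windows of the transcript were unique, found in no transcript of another gene compared. The genes compared were the 7 globins and a few other globin genes. The share was 34.2% for *Hbb-bs*, 41.7% for *Hbb-bt*, 32.5% for *Hba-a1* and 13.1% for *Hba-a2*. The split of reads within each adult-type pair is therefore uncertain, while embryonic and adult-type reads can be told apart by sequence. The values are minimum normalized counts, and how these treat reads that fit both copies was not tested. Adult-type counts may thus be too low, and embryonic shares too high, by an unknown amount.

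Globin transcripts were abundant in gut cells and scarce in ENCDCs. The 7 globin genes held 0.520%, 0.675%, 0.698% and 0.693% of all counts in gut replicates 1 to 4, and 4.49e-03%, 9.80e-03%, 8.33e-03% and 3.54e-03% in ENCDC replicates 1 to 4. Every gut library lay above every ENCDC library. In these sorted bulk samples, fewer red cells and less erythroid RNA per cell cannot be told apart.

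*Hbb-y*, the embryonic epsilon-type beta globin, had counts of 201, 461, 457 and 200 in ENCDC replicates 1 to 4 and of 10421, 15193, 25817 and 39843 in gut replicates 1 to 4. The groups did not overlap, and gut replicate 4 held the highest count, 3.82 times that of gut replicate 1. On the log2 scale ENCDCs differed from gut cells by -6.07 (SE 0.49, edgeR adjusted p = 3.38e-06). *Hbb-bh1*, another embryonic beta-like globin, had 0, 7, 8 and 1 counts in ENCDCs and 435, 585, 619 and 762 in gut cells, a log2 fold change of -7.14 (SE 0.52, edgeR adjusted p = 1.44e-06). *Hba-x*, the embryonic zeta globin, had 21, 48, 109 and 30 counts in ENCDCs and 1343, 1541, 2617 and 3957 in gut cells, and fell by 5.46 on the log2 scale (SE 0.52, edgeR adjusted p = 1.05e-05). Without ENCDC replicate 3, where *Hba-x* was highest of the ENCDC libraries, the log2 fold change was -6.10. In each of the 3 embryonic genes gut replicate 4 was the highest library and gut replicate 1 the lowest gut library.

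The adult-type globins fell as far. *Hbb-bs*, an adult-type beta globin, had 150, 304, 136 and 97 counts in ENCDC replicates 1 to 4 and 22927, 28975, 26189 and 18426 in gut replicates 1 to 4. Gut replicate 4, the highest for *Hbb-y*, was the lowest gut library for *Hbb-bs*, and the groups did not overlap. The log2 fold change was -7.09 (SE 0.34, edgeR adjusted p = 7.54e-08). Its near copy *Hbb-bt* had 66, 147, 119 and 45 counts in ENCDCs and 14349, 20224, 14801 and 10143 in gut cells, a log2 fold change of -7.25. *Hba-a1* had 95, 187, 153 and 66 against 11654, 14450, 13654 and 11570, and *Hba-a2* had 62, 145, 122 and 31 against 7780, 8465, 8853 and 7128. Their log2 fold changes were -6.63 and -6.44, with edgeR adjusted p of 3.29e-08 and 2.53e-07. Across the 4 adult-type genes the ENCDC libraries stood at 0.302% to 1.80% of the gut mean, with ENCDC replicate 4 the lowest and replicate 2 the highest for each gene.

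**Figure D2:**
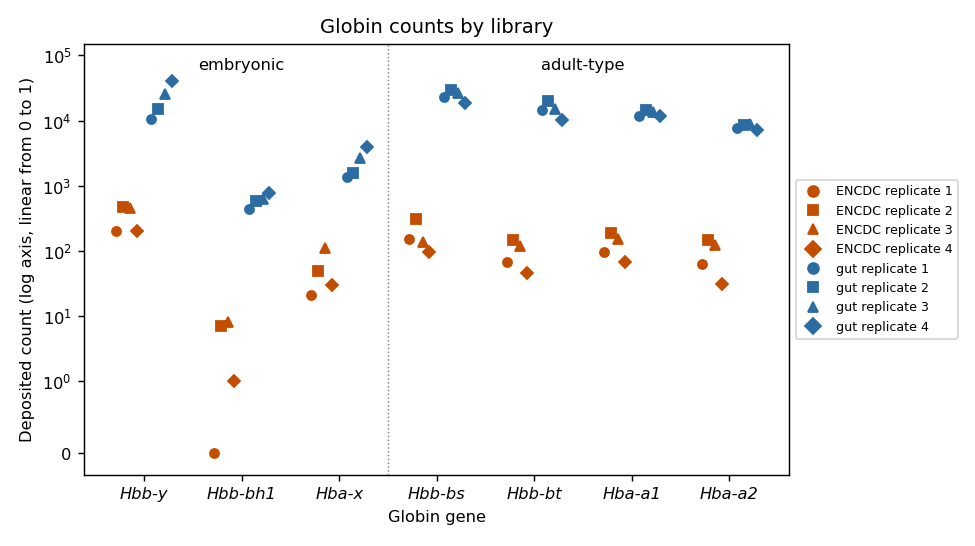
Deposited counts (y axis, log scale, linear from 0 to 1) of the 7 globin genes (x axis) in each of the 4 ENCDC (orange) and 4 gut (blue) libraries, 1 marker per library. For all 7 genes every gut library lies above every ENCDC library, and in the 3 embryonic genes gut replicate 4 is highest.

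Per kilobase of transcript, *Hbb-bs* (mean level 38420 counts per kilobase, SD 7221, n = 4) and *Hbb-y* (36050, SD 20610) had the highest counts in the gut libraries. *Hbb-bt* (21170), *Hba-a1* (18360) and *Hba-a2* (14540) followed, with *Hba-x* (2952) and *Hbb-bh1* (979.2) lowest. Whole transcript lengths were used, although only 13.1% to 41.7% of the windows of adult-type genes were unique. The order of embryonic and adult-type genes is therefore uncertain. The levels of *Hbb-bs* and *Hbb-y* overlapped between libraries. *Hbb-y* stood at 16460 per kilobase in gut replicate 1, below *Hbb-bs* at 36510, and at 62940 in gut replicate 4, above *Hbb-bs* at 29340.

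The balance of embryonic to adult-type globin therefore differed between gut libraries. Of the counts of the 4 beta-like genes, the embryonic genes *Hbb-y* and *Hbb-bh1* made up 22.6% in gut replicate 1 (95% Wilson interval 22.2% to 22.9%), 24.3% in replicate 2, 39.2% in replicate 3 and 58.7% in replicate 4 (58.3% to 59.1%). Of the alpha-like counts, *Hba-x* made up 6.46%, 6.30%, 10.4% and 17.5% in the same order. Both shares were lowest in gut replicates 1 and 2 and highest in replicate 4. The total globin share differed far less between gut replicates 2, 3 and 4, which ran from 0.675% to 0.698%. Intervals cover counting error only, and reads were not counted by molecular identifiers. The size of each share also depends on how reads that fit both copies of an adult-type pair were counted.

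In ENCDC libraries, from much smaller counts, the embryonic share of beta-like counts was 48.2% (43.4% to 53.0%, 417 counts), 50.9%, 64.6% (61.0% to 68.0%, 720 counts) and 58.6% (53.3% to 63.7%, 343 counts) in replicates 1 to 4. All 4 lay above gut replicates 1, 2 and 3, and gut replicate 4 fell among them, so the groups overlapped. *Hba-x* made up 11.8%, 12.6%, 28.4% and 23.6% of alpha-like counts in ENCDC replicates 1 to 4, and these overlapped with the gut range of 6.30% to 17.5%. Within the embryonic beta-like counts the share of *Hbb-bh1* was 4.01%, 3.71%, 2.34% and 1.88% in gut replicates 1 to 4, and 0%, 1.496%, 1.72% and 0.498% in ENCDC replicates 1 to 4, from 0 to 8 counts of the gene. The groups did not overlap, but the intervals of ENCDC replicates 2, 3 and 4 (up to 3.36% in replicate 3) reached into the gut range. Gut replicate 4, which had the highest count of *Hbb-bh1*, thus had the lowest share of it. The alpha-like share of all 7 globins ran from 24.7% to 30.2% in gut libraries and from 27.0% to 34.8% in ENCDC libraries, and these overlapped.

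**Figure D3:**
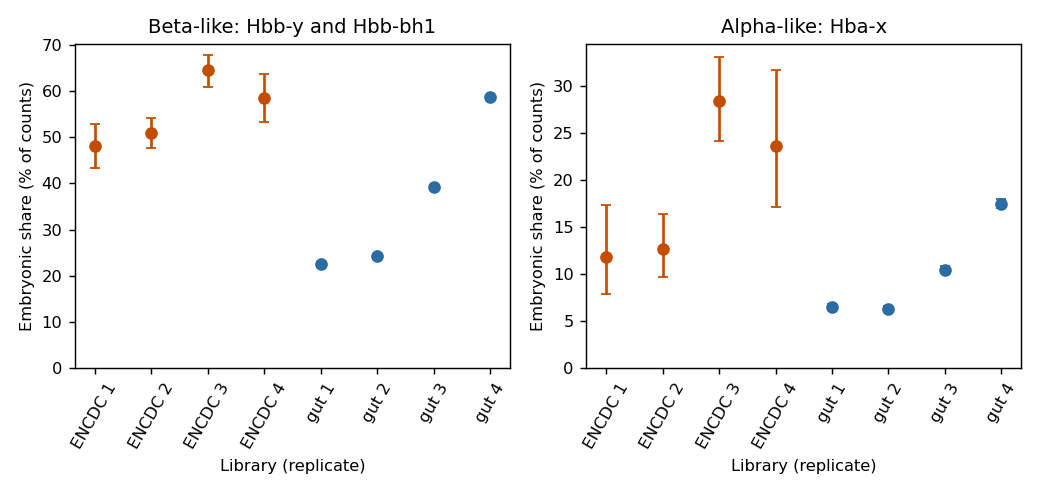
Share of embryonic genes (y axis, % of counts, from 0) among the beta-like (left) and alpha-like (right) globin counts of each library (x axis), orange for ENCDC and blue for gut, with 95% Wilson intervals that cover counting error only. The beta-like share runs from 22.6% to 58.7% in gut libraries and from 48.2% to 64.6% in ENCDC libraries.

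All 5 erythroid transcription factor genes were lower, where 20.9% of all tested genes were. However, *Gata1*, *Tal1* and *Gfi1b* passed the filter on low counts only through the gut libraries. *Gata1*, the zinc finger factor that red cells cannot form without, had 0, 12, 0 and 0 counts in ENCDC replicates 1 to 4 and 498, 782, 432 and 466 in gut replicates 1 to 4. ENCDC counts lay far below the gut counts and came from 1 library. The fitted log2 fold change was -7.40 (SE 0.74, edgeR adjusted p = 1.64e-05), and without ENCDC replicate 2 the group had no count and was at least 544.5-fold lower. *Klf1*, which activates adult beta globin, had 8, 4, 15 and 1 counts against 974, 1306, 706 and 629, a log2 fold change of -6.94 (SE 0.47, edgeR adjusted p = 7.86e-07) and of -7.61 without ENCDC replicate 3. *Tal1*, a factor of blood and vessel formation, had 0 counts in all 4 ENCDC libraries and 181, 281, 106 and 187 in gut libraries. With 3 counts over the group as the floor, it was at least 251.7-fold lower (edgeR adjusted p = 1.84e-05).

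*Nfe2*, a subunit of a factor that binds globin control regions and also serves megakaryocytes, had the smallest difference of the 5. Its counts were 9, 6, 54 and 12 in ENCDC replicates 1 to 4 and 343, 635, 351 and 321 in gut replicates 1 to 4. ENCDC replicate 3 reached 13.1% of the gut mean, against 1.45% to 2.91% in the other 3. The log2 fold change was -4.30 (SE 0.59, edgeR adjusted p = 1.83e-04), and -5.44 without ENCDC replicate 3. *Gfi1b*, a repressor that red cell and platelet precursors need, had 8, 8, 0 and 0 counts against 449, 461, 299 and 235 and fell by 6.40 on the log2 scale (edgeR adjusted p = 2.65e-05). *Gata1*, *Tal1*, *Nfe2* and *Gfi1b* are also used by megakaryocytes. Of 12 megakaryocyte and platelet genes tested, 5 were lower and 0 were higher, where 20.9% and 17.0% of all tested genes were, with a median log2 fold change of -2.04, and the most abundant were *Itgb3* and *Pf4*. Their summed level was 10.6 to 36.5 CPM in ENCDC libraries, highest in replicate 3, and 67.3 to 102.8 in gut libraries. Their part in the values of the shared factors was not tested.

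The heme enzymes differed widely among themselves. *Alas2*, the erythroid 5-aminolevulinate synthase on chromosome X, had 38, 6, 48 and 2 counts in ENCDC replicates 1 to 4 and 2149, 2272, 2457 and 1656 in gut replicates 1 to 4. The groups did not overlap, and the log2 fold change was -6.45 (SE 0.53, edgeR adjusted p = 3.62e-06). Without ENCDC replicate 3 it was -7.05. *Alas1*, the form of the same enzyme used in all tissues, had 789, 965, 868 and 693 counts against 1259, 1311, 1269 and 1277. ENCDC libraries thus held 54.2% to 75.5% of the gut mean of *Alas1* and 0.0937% to 2.25% of that of *Alas2*. The log2 fold change of *Alas1* was -0.58 (SE 0.12, edgeR adjusted p = 2.30e-03).

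*Cpox*, coproporphyrinogen oxidase, and *Fech*, ferrochelatase, which puts the iron into heme, were the next lowest. *Cpox* had 370, 405, 366 and 324 counts in ENCDC replicates 1 to 4 and 2509, 3504, 2028 and 1866 in gut replicates 1 to 4, a log2 fold change of -2.71 (SE 0.19, edgeR adjusted p = 1.14e-06). *Fech* had 748, 831, 732 and 879 against 3239, 4776, 3661 and 3028, a log2 fold change of -2.16 (SE 0.15, edgeR adjusted p = 9.58e-07). Neither gene overlapped between the groups, and both kept clear counts in every ENCDC library. *Alad*, which joins 2 molecules of aminolevulinate, stood at 37.8% to 49.4% of the gut mean in ENCDC libraries and fell by 1.17 on the log2 scale (edgeR adjusted p = 6.60e-05). *Urod*, uroporphyrinogen decarboxylase, stood at 52.4% to 65.6% and fell by 0.69 (edgeR adjusted p = 2.49e-03).

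*Ppox*, protoporphyrinogen oxidase, had 902, 976, 1329 and 896 counts in ENCDC replicates 1 to 4 and 1647, 2148, 1311 and 1527 in gut replicates 1 to 4. ENCDC replicate 3 lay above gut replicate 3, so the groups overlapped, and the log2 fold change was -0.65 (SE 0.17, edgeR adjusted p = 0.0116). *Uros*, uroporphyrinogen III synthase, had 446, 507, 499 and 290 counts against 568, 873, 696 and 517, with no overlap by a narrow gap. Its log2 fold change was -0.56 (SE 0.21, edgeR adjusted p = 0.0585). The *Uros* call changed with the processing: its adjusted p was 0.0427 without ENCDC replicate 3 and 0.0443 without gut replicate 4. *Ppox* shares 791 exon bases with *B4galt3* on the opposite strand and *Alas2* shares 311 with *Apex2*, and the library kits do not keep the strand, so reads there cannot be assigned to one gene. Of the 8 heme enzymes on the main list 7 were lower, where 20.9% of all tested genes were. Their median log2 fold change was -0.93. Without *Alas2* 6 of 7 were lower, with a median of -0.69.

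**Figure D4:**
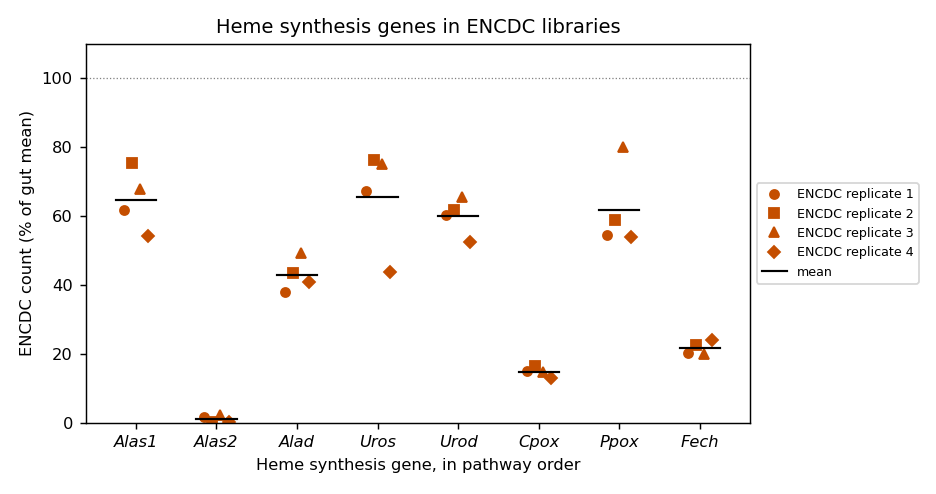
Count in each ENCDC library as a percentage of the mean of the 4 gut libraries (y axis, from 0) for the 8 heme enzyme genes of the main list in pathway order (x axis), 1 marker per library and a line at the mean. *Alas2* lies between 0.0937% and 2.25%, *Cpox* between 13.1% and 16.4% and *Fech* between 19.9% and 23.9%, and the other genes lie higher.

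The 2 receptors split in the same way as the enzymes. *Epor*, the erythropoietin receptor, had 11, 0, 51 and 4 counts in ENCDC replicates 1 to 4 and 310, 464, 321 and 159 in gut replicates 1 to 4. ENCDC replicate 3 held most of the ENCDC counts. The log2 fold change was -4.20 (SE 0.84, edgeR adjusted p = 2.31e-03), and -5.88 without that library. *Tfrc*, the transferrin receptor that brings iron into red cell precursors and other dividing cells, had 1861, 1395, 1487 and 1895 counts against 3303, 4351, 2972 and 2087. The groups did not overlap, and *Tfrc* fell by 0.89 on the log2 scale (SE 0.20, edgeR adjusted p = 4.43e-03).

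The 6 genes of the red cell membrane and its skeleton were lower in ENCDCs, where 20.9% of all tested genes were. Of the 6 genes 4, *Ank1*, *Epb42*, *Rhag* and *Kel*, passed the filter on low counts only through the gut libraries. *Slc4a1*, the band 3 anion exchanger, had 13, 12, 1 and 12 counts in ENCDC replicates 1 to 4 and 2628, 4695, 2899 and 1709 in gut replicates 1 to 4. ENCDC libraries stood between 0.0335% and 0.436% of the gut mean, and the log2 fold change was -8.23 (SE 0.46, edgeR adjusted p = 2.00e-07). *Ank1*, which ties band 3 to spectrin, had 0 counts in all ENCDC libraries and 304, 326, 157 and 101 in gut libraries. It was at least 296-fold lower (edgeR adjusted p = 3.47e-05). *Epb42*, which encodes a skeleton protein bound to band 3, had 0, 0, 0 and 4 counts against 688, 714, 541 and 510, a log2 fold change of -9.04, and without ENCDC replicate 4 it had no ENCDC count and was at least 613-fold lower.

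*Rhag*, the Rh-associated glycoprotein of the same membrane, had 1, 8, 2 and 0 counts in ENCDC replicates 1 to 4 and 881, 1127, 831 and 569 in gut replicates 1 to 4. Its log2 fold change was -8.16 (edgeR adjusted p = 3.98e-07), and -9.52 without ENCDC replicate 2. *Kel*, the Kell blood group protein, had 0, 5, 22 and 0 counts against 372, 499, 344 and 295, a log2 fold change of -5.74 (edgeR adjusted p = 1.63e-04), and -7.67 without ENCDC replicate 3. *Sptb*, beta-spectrin, differed least of the 6. It had 243, 264, 148 and 527 counts against 830, 1208, 576 and 564, so that ENCDC replicate 4 came close to gut replicate 4 without passing it. The log2 fold change was -1.37 (SE 0.37, edgeR adjusted p = 0.0131). The median log2 fold change of the 6 genes was -8.19, on either treatment of *Ank1*.

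Of the 4 remaining genes, which include enzymes of the red cell, 3 were lower, where 20.9% of all tested genes were. Among these 3, *Trim10* and *Car1* passed the filter only through the gut libraries. *Bpgm*, which makes the 2,3-bisphosphoglycerate that lowers the oxygen affinity of hemoglobin, had 799, 750, 1068 and 531 counts in ENCDC replicates 1 to 4 and 770, 784, 982 and 894 in gut replicates 1 to 4. The groups overlapped across their whole range, and the log2 fold change was -0.08 (SE 0.19, edgeR adjusted p = 0.776). *Trim10*, a RING finger gene of late red cell precursors, had 1 count in ENCDCs, in replicate 4, and 572, 642, 408 and 213 in gut libraries. The ratio of gut to ENCDC counts was 1835, with an exact 95% interval of 328.9 to 72520 that covers counting error only. *Car1*, carbonic anhydrase 1, also had 1 ENCDC count, in replicate 1, against 115, 96, 55 and 65, a ratio of 331 (59.0 to 13110). Without those libraries neither gene had an ENCDC count, and the bounds were 458.8-fold for *Trim10* and 82.8-fold for *Car1*. *Car2*, carbonic anhydrase 2, which epithelium and glia also use, had 87, 106, 179 and 93 counts against 4710, 8814, 4400 and 2943 and fell by 5.44 on the log2 scale (SE 0.37, edgeR adjusted p = 8.14e-07).

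A second list of 40 erythroid and heme genes gave 38 tested genes. They were not picked for how they moved, but earlier results of these data were known. Of these 23 were lower in ENCDCs (20.9% of all tested genes were), 3 were higher (17.0% of all tested genes were) and 12 were not called, with a median log2 fold change of -1.54. Among the most abundant lower genes were *Gypc*, a glycophorin gene (-2.05), *Abcb10*, a mitochondrial transporter (-1.60), and *Blvrb*, biliverdin reductase B (-3.72). Among those higher in ENCDCs were *Add2*, an adducin of the spectrin skeleton that neurons also use (log2 fold change 1.87, edgeR adjusted p = 2.03e-05) and *Dmtn*, dematin (1.31, 3.49e-03).

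Among gut libraries, the red cell genes moved in 2 patterns. Of the 32 genes, 25 were highest in gut replicate 2, where 27.1% of 12174 genes with a gut mean of at least 50 were highest, and 23 were lowest in gut replicate 4, where 23.6% of those genes were lowest. For the 25 genes other than globins, the median level was 99.3%, 132.3%, 88.2% and 77.8% of the gut mean in replicates 1 to 4. The embryonic globins went the other way, with medians of 56.8%, 66.6%, 110.7% and 167.4%, and adult-type globins had medians of 95.7%, 116.3%, 107.5% and 82.4%. The second list had the first pattern: of its 23 genes lower in ENCDCs, 20 were highest in gut replicate 2 and 16 lowest in gut replicate 4. Summed macrophage markers were highest in gut replicate 1 and, like this pattern, lowest in replicate 4, with 1115, 771.5, 793.8 and 649.5 CPM in gut replicates 1 to 4. Summed mesenchyme markers, with 13340, 11670, 15370 and 13290 CPM, were lowest in replicate 2 and highest in replicate 3. These patterns describe 4 libraries of 1 group and carry no test.

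**Figure D5:**
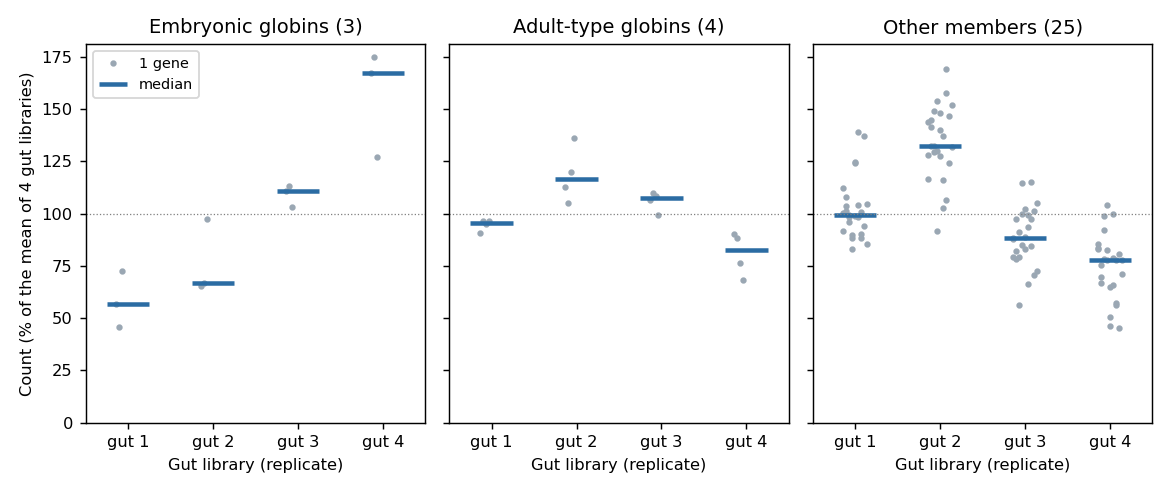
Count in each gut library (x axis) as a percentage of the mean of the 4 gut libraries (y axis, from 0), 1 grey point per gene and a blue line at the median, for the 3 embryonic globins, the 4 adult-type globins and the other 25 genes. The median of embryonic globins is highest in gut replicate 4 (167.4%), and that of the other 25 genes in gut replicate 2 (132.3%).

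In ENCDC libraries the red cell genes had no single high library. Of the 30 genes with an ENCDC count, 12 were highest in ENCDC replicate 3, 10 in replicate 2, 5 in replicate 4 and 3 in replicate 1, with *Gfi1b*, which was equal in replicates 1 and 2, counted under replicate 1. Of 18228 tested genes with an ENCDC count, 32.1%, 22.0%, 22.8% and 23.2% were highest in the same order of libraries, so replicate 3 led over all genes too. The 4 adult-type globins were highest in replicate 2, while *Hba-x*, *Klf1*, *Nfe2*, *Alas2*, *Epor* and *Kel* were highest in replicate 3. Summed mesenchyme markers were lowest in ENCDC replicate 2 (227.7 CPM) and highest in replicate 3 (1570). Their part in these values was not tested.

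Promoters were described because the genes were put together for a shared lineage. RefSeq promoters (GRCm38.p6) were at hand for 25 of the 33 genes, and the 250 bases before the start were searched on both strands. A GATA motif (AGATAA, or the same with T as the first base, G as the last base or both) was found in 15 of the 25 (60%), against 27.1% of 27025 promoters. A CACCC-type motif (CCNCNCCC), of the kind that Klf1 binds, was in 52% against 45.6%. CCAAT was in 56% against 34.5%, and TATAAA in 16% against 13.0%. The globins *Hba-x*, *Hbb-y*, *Hba-a1*, *Hba-a2* and *Hbb-bs* were among the genes with a GATA motif, as were *Klf1*, *Tal1*, *Gfi1b*, *Alas2*, *Cpox*, *Epor*, *Epb42*, *Rhag*, *Kel* and *Trim10*. Matches are descriptions of letters and carry no test, and motifs can overlap. For *Hba-x*, *Hba-a1*, *Epb42*, *Alas1* and *Bpgm*, all bases from 120 to 11 before the start lay inside the gene's own GENCODE M21 exons. Some other genes overlapped their exons in part, so part of the searched sequence can be transcribed. The promoters of *Hba-a1* and *Hba-a2* are near copies, and each was counted. A globin, the receptor and the heme enzyme with the second largest difference are shown from 120 to 11 bases before the start, with matches to any of the 4 motifs in capitals (a match that runs past the end is shown in part). They are chr7:103853218-103853327 on the minus strand, chr9:21963587-21963696 on the minus strand and chr16:58670088-58670197 on the plus strand.
Hbb-y: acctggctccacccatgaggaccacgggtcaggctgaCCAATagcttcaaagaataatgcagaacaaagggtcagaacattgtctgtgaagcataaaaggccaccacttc
Epor: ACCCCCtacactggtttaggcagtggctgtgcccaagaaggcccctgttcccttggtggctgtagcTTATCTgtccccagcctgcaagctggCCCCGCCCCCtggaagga
Cpox: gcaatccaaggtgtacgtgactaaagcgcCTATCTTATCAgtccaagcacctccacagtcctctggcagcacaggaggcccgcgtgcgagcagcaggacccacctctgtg

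In this stretch *Cpox* held 2 overlapping GATA matches on the opposite strand, *Epor* held 1, and the GATA match of *Hbb-y* lay farther upstream.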

How the data were processed

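mRNA was measured in 4 ENCDC and 4 gut cell libraries of E13.5 bowel, whose groups came from the labels. Reads had been aligned to mm10 by STAR 2.4.2a and normalized in PORT, and the authors deposited the minimum normalized read counts as whole numbers for each gene. The series' design text speaks of small RNAs and CPM, but the values are whole mRNA counts and were used as such. Totals ran from 13250893 to 13267220, and a count of 0 allows up to 3 counts.

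The populations were tested in edgeR 4.0.16 (R 4.3.3) with TMM factors, after a filter that kept genes with a mean of 3 or more and counts above 0 in 3 or more samples of either group. No 2 libraries agreed within sampling noise. Alternatives were limma 3.58.1 with voom (the study's own choice), DESeq2 1.42.0, RLE factors, no factors, no filter or a stricter one, a 2-fold null, a replicate block and leaving out each library. GENCODE M21 matched 29035 of 29092 gene IDs. Figures were drawn with matplotlib 3.10.9.

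The genes, lists and comparisons were chosen with earlier results of these data known. All genes of the main list are named. From other lists the text names no more than 4 called genes, those most abundant, with any called against most of their list and genes in small counts. Some genes that this rule picks are left out and not reported here.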

Additional observations from a re-analysis of the deposited data

Results flagged for a closer look

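In groups of 4 libraries, a library was singled out when its gap to the nearest other, divided by the range of the group, was above Dixon's 95% critical value for 4 samples. Gaps were taken on TMM-scaled counts, and the counts given are as deposited. Of 62 groups tested, 8 had such a library. In 4 of the 8 the other 3 libraries had 0 counts, so the gap is 1.0 by construction and the error rate of the test does not apply. Among the 58 groups with counts in 2 or more libraries, 4 had such a library, and chance gives about 5% of groups.

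*Nfe2* was singled out in both populations. In gut cells replicate 2 was high (635 counts against 321 to 351, a gap of 0.907 of the range), and in ENCDCs replicate 3 was high (54 against 6 to 12, 0.869). *Gata1* was high in gut replicate 2 (782 against 432 to 498) with a gap of 0.833 on scaled counts, but of 0.811 on counts as deposited, which would not have been singled out. *Slc4a1* was low in ENCDC replicate 3, with 1 count against 12 to 13 (0.918).

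The 4 groups with a gap of 1.0 were in ENCDCs. *Gata1* had its 12 counts in replicate 2, *Epb42* its 4 counts and *Trim10* its 1 count in replicate 4, and *Car1* its 1 count in replicate 1.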

How the results depend on the processing

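Of the 32 genes, 30 or 31 were lower in ENCDCs under every alternative except the test against a 2-fold change, which left 24, and 0 were higher in any. *Uros* was the gene whose call changed outside that test, with an adjusted p of 0.0258 by DESeq2, 0.0460 with RLE factors and 0.0457 without factors. Against a 2-fold change, 983 of all tested genes were higher and 2031 lower (3212 and 3946 in the main test), and 1 gene of the second list was higher. Leaving out 1 library at a time gave 2 to 5 higher genes of the second list, with 5 without ENCDC replicate 3. Leaving *Hbb-bt* out of the beta-like counts moved the median embryonic share of ENCDCs from 54.8% to 64.0% and that of gut cells from 31.7% to 42.8%, as the construction of the share requires. The median log2 fold change of all tested genes was -0.04 with TMM, -0.08 with RLE factors and -0.09 without factors.

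The deviations of same-numbered libraries from their group means correlated at 0.0055, 0.0318, -0.0133 and 0.0048 across genes. Those of differently numbered libraries ran from -0.0502 to 0.0611. The populations are different cells, so these values cannot show whether same-numbered libraries came from the same embryos. Both embryonic globin shares were lower in replicates 1 and 2 than in replicates 3 and 4, in ENCDC and in gut libraries. A shared origin of same-numbered libraries was not tested. With a replicate block, 31 of the 32 genes were lower (*Uros* at an adjusted p of 0.027), and 2609 of all tested genes were higher and 3324 lower. The block changed no other call among the 32.

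Depth limits low ENCDC values. Genes with 0 to 4 ENCDC counts over the group (*Tal1*, *Ank1*, *Trim10*, *Car1* and *Epb42*) have bounds or wide intervals, and their fitted log2 fold changes depend on the prior count.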
